A study of Rattus norvegicus with 8 samples.

Results

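The genes described here are the zinc transporters of the ZnT (Slc30a) and ZIP (Slc39a) families, the copper transporters Slc31a1, Slc31a2, Atp7a and Atp7b, the iron transport and storage genes Slc11a1, Slc11a2, Slc40a1, Tfrc, Fth1 and Ftl1, and the metallothioneins Mt1, Mt1m, Mt2A and Mt3. They were chosen by symbol through the RefSeq accession of the array probe, with 1 probe per gene, the one with the highest mean signal. The rule covered 39 rat genes in the RefSeq table, of which 34 had a probe and 32 passed the filter for signal above background, out of 11827 named genes with a tested probe. RNA came from slices of the kidney cortex, taken from 4 males and 4 females, and the RNA of each rat was read on its own one-colour Agilent array. All rats were untreated adults of the RCCHanTMWIST strain, so that sex was the only labelled difference, and the question was which of these genes are expressed differently in male and female kidney cortex. Values are log2 signals after subtraction of the array's own 75th percentile, and fold-changes are given as male minus female.

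Zinc, copper and iron are needed by many enzymes but are harmful when free in excess, so cells move them through dedicated transporters and hold them in binding proteins. ZIP proteins bring zinc into the cytosol, ZnT proteins move it out of the cytosol into vesicles or out of the cell, and metallothioneins are small cysteine-rich proteins that bind zinc, copper and cadmium. When cytosolic zinc rises, the transcription factor Mtf1 binds metal response elements in the promoters of metallothionein genes and of Slc30a1, and in the kidney cortex the proximal tubule takes back filtered metals.

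The proximal promoters of the metallothioneins Mt1, Mt2A and Mt3 and of the zinc exporters Slc30a1 and Slc30a2 are shown. They were chosen because metallothionein genes and Slc30a1 are known targets of Mtf1, and because Slc30a2 and Mt3 differed between the sexes. Each sequence is the 250 bases before the RefSeq transcription start (build GRCr8), written 5′ to 3′ on the strand of the gene. Capitals mark the metal response element core, TGCACNC or TGCGCNC on either strand. The windows are chr19:10832976-10833225 on the minus strand for Mt1, chr19:10838709-10838958 on the minus strand for Mt2A, chr19:10856081-10856330 on the minus strand for Mt3, chr13:106021769-106022018 on the plus strand for Slc30a1 and chr5:151843201-151843450 on the plus strand for Slc30a2.
Mt1: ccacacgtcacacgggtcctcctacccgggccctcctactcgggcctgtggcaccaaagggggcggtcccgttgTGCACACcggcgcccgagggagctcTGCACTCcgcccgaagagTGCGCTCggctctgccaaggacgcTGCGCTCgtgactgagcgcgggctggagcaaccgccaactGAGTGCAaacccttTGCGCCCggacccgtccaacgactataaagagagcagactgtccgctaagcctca
Mt2A: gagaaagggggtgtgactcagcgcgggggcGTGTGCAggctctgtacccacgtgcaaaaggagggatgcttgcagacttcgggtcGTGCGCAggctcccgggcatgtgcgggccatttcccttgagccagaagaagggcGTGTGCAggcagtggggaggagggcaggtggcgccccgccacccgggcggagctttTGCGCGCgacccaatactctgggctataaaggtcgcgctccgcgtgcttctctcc
Mt3: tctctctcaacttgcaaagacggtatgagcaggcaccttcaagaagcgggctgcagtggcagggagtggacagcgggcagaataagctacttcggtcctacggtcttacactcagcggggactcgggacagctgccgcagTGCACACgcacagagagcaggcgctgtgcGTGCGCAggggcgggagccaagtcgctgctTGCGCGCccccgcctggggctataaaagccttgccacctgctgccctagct
Slc30a1: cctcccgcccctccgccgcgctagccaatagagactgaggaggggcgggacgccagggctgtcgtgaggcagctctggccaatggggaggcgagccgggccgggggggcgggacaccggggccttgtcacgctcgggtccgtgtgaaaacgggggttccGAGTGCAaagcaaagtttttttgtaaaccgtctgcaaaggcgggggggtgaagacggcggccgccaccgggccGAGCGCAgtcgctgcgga
Slc30a2: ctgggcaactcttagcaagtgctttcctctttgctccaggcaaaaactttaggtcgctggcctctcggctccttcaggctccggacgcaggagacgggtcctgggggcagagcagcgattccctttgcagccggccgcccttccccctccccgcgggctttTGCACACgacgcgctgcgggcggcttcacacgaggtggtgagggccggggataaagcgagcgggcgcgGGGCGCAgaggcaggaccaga

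The core was found 6 times in the Mt1 window, 4 times in that of Mt2A, 3 times in that of Mt3, and 2 times each in those of Slc30a1 and Slc30a2. Of all 27457 RefSeq promoters in the table, 21.2% held at least 1 core in the same 250 bases, 5.13% at least 2 and 1.25% at least 3. A RefSeq promoter was matched for 27 of the 34 genes with a probe, and 13 of these 27 (48.1%) held a core. Beside the 5 genes shown, these were Slc39a7 with 4, Tfrc with 3, Slc30a4, Slc30a5 and Slc39a11 with 2 each, and Atp7b, Slc31a2 and Slc39a1 with 1 each. Of the other motifs searched on both strands, TTCNNNGAA, the form bound by Stat5 and Bcl6, stood in 1 of 27 windows (Slc39a8; 3.70%, against 7.52% of all promoters), and TGTTCT, the androgen receptor half-site, in 2 of 27 (Slc39a6 and Slc39a9; 7.41%, against 17.1%). These are matches of letters and not measured binding sites.

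**Figure D1:**
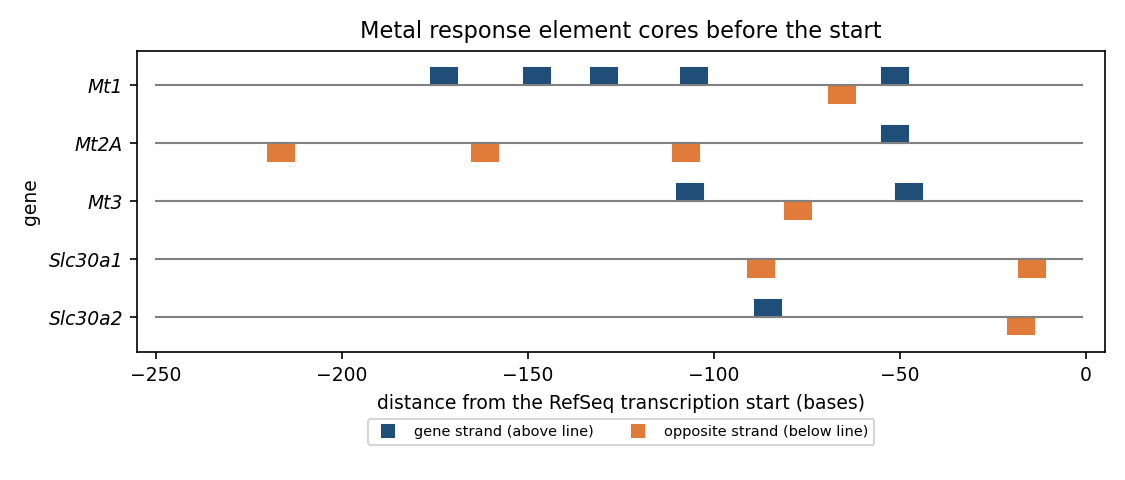
Positions of metal response element cores in the 250 bases before the RefSeq transcription start of 5 genes. The x-axis gives the distance from the start in bases, each row is 1 gene, and boxes above the line lie on the strand of the gene and boxes below it on the opposite strand. Mt1 holds 6 boxes, Mt2A 4, Mt3 3, and Slc30a1 and Slc30a2 2 each.

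The arrays all lay on 1 slide, with 2 males and 2 females in each of its 2 rows. The 75th percentile of the signal ranged from 5025 to 5944 in females and from 5685 to 6547 in males, and 73.8% to 79.1% of probes were well above background. The number of arrays, 4 for each sex, limited the precision. Of 10 proximal tubule markers, 2 passed an adjusted p of 0.05 (Cubn, lower in males, and Slc22a6, higher in males), against 8.06% of all probes. The values of the sexes did not overlap for 6 of the 10, 4 higher in males and 2 higher in females, against 18.5% of all probes. The summed signal of the 10, in multiples of the 75th percentile, overlapped between females (294 to 314) and males (296 to 318). Some other marker lists did not overlap: the summed signal of 8 markers of proximal tubule segment 3 was 27.1 to 61.0 in females and 19.8 to 26.1 in males, that of 5 thick ascending limb markers 61.8 to 70.3 and 52.7 to 59.4, and that of 6 glomerulus markers 15.1 to 16.1 and 12.9 to 13.5. A single bright gene made up most of each of these sums, Umod 87.3% to 90.9% of the thick ascending limb sum, Slc7a13 61.2% to 71.6% of the segment 3 sum and Podxl 58.4% to 64.7% of the glomerulus sum. Without that gene the sexes overlapped in all 3 lists, at 6.27 to 7.11 in females and 5.64 to 6.91 in males for the thick ascending limb, 8.70 to 19.3 and 7.61 to 9.39 for segment 3, and 5.32 to 6.62 and 4.99 to 5.61 for the glomerulus. Collecting duct (8 markers, 50.03 to 64.4 in females and 42.2 to 54.6 in males), distal convoluted tubule (4 markers, 13.5 to 21.1 and 13.4 to 17.6), red blood cell (6 markers, 45.6 to 57.1 and 37.4 to 55.9) and macrophage sums (9 markers, 3.15 to 4.69 and 3.76 to 4.99) overlapped. The 7 liver markers summed to 0.511 to 0.534 in females and 0.262 to 0.305 in males. Without Fgb, the 1 liver marker that passed (log2 fold-change -1.35), they summed to 0.129 to 0.188 and 0.137 to 0.161. Apoa1 was well above background on 0 arrays, Serpina1 on 5, Ahsg on 6, Alb and Apoa2 on 7, and Ambp and Fgb on 8.

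Of the 32 genes tested, 1 was called sex-dependent (adjusted p below 0.05 and a log2 fold-change of at least 1 either way), Slc30a2, which was higher in males. By the same rule 443 of 23425 probes (1.89%) were called, 187 higher in males (0.798%) and 256 higher in females (1.09%). At an adjusted p below 0.05 whatever the size, 4 genes passed, Slc30a2 and Slc11a2 higher in males and Slc31a2 and Mt3 higher in females, the Slc11a2 call resting on 1 of 2 probes that disagree. The share of all probes was 8.06% at this threshold (3.39% higher in males and 4.67% higher in females), and the 4 of 32 are not read as a result about these genes as a set. Without female 2 or without male 2 only Slc30a2 passed, and without female 1 Slc39a2, a dim probe close to background, was also called sex-dependent. With a trended robust prior in limma 6 genes passed, Slc39a2 and Tfrc in addition, and with normexp background correction 5, Slc39a2 in addition. Before adjustment 13 genes had a p below 0.05, 9 of them higher in males and 4 higher in females. Of all probes 25.6% did, 2279 of them higher in males and 3708 higher in females. The values of the sexes did not overlap for 9 genes, 5 higher in males (Slc30a2, Slc11a2, Slc39a3, Slc30a4 and Slc39a1) and 4 higher in females (Slc39a2, Mt3, Slc31a2 and Ftl1). They did not overlap for 18.5% of all probes, 1750 higher in males and 2576 higher in females. Neither count is read as a result about these genes as a set. The median log2 fold-change of the 32 genes was 0.0040, with 16 genes above 0 and 16 below, and that of all probes was -0.04. The median size without sign was 0.19 for the 32 genes and 0.15 for all probes, and 26 of the 32 lay within 0.5 of 0.

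**Figure D2:**
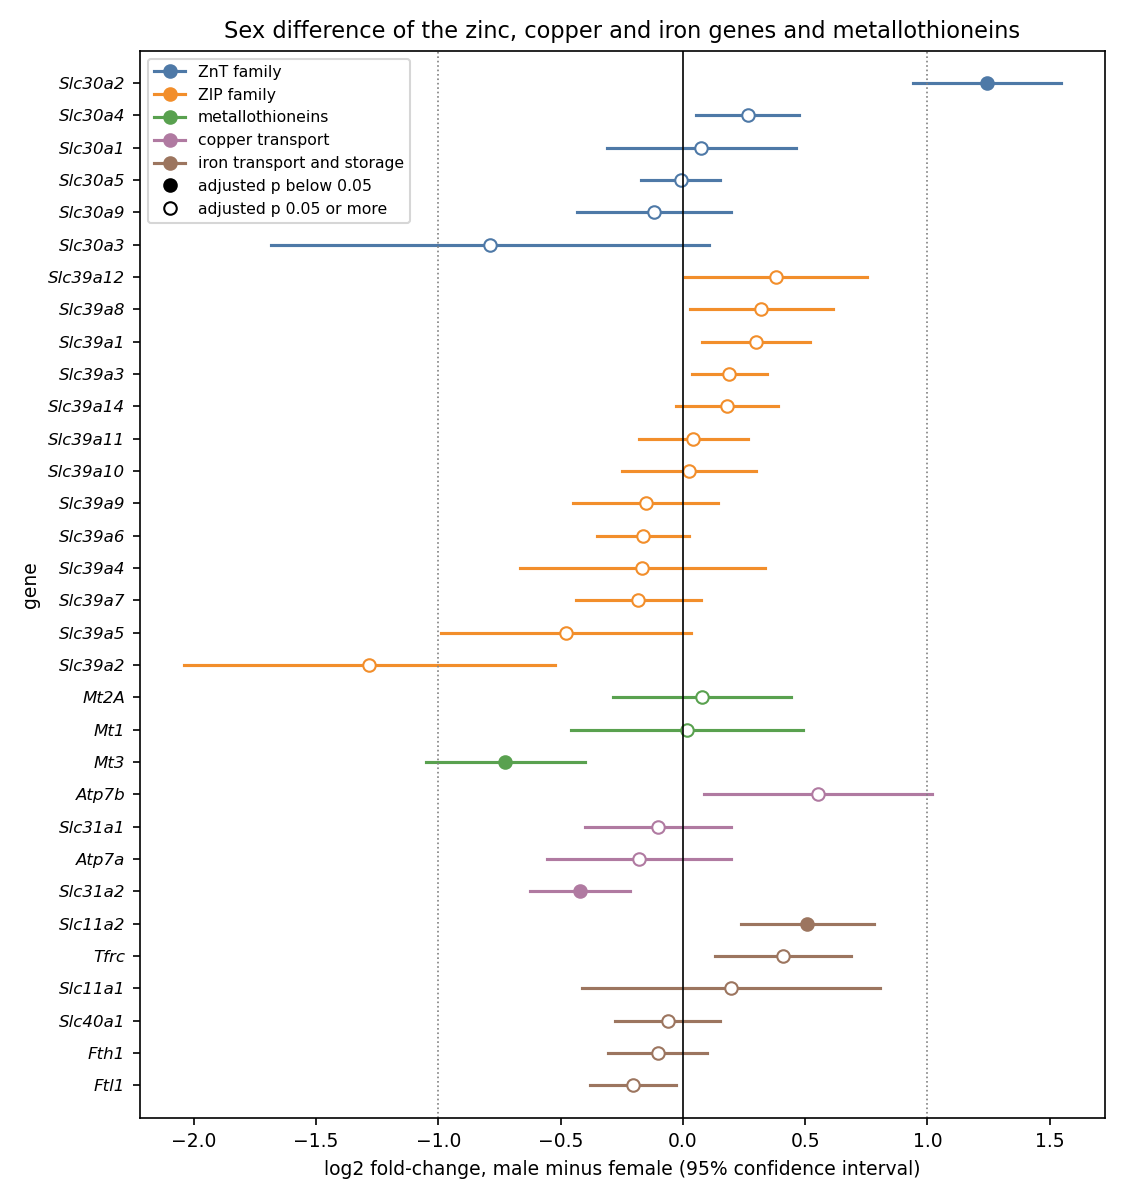
Log2 fold-change (male minus female, x-axis) of the 32 tested genes (y-axis), ordered within family, from limma on 4 males and 4 females. Points are estimates, bars are 95% confidence intervals, filled points have an adjusted p below 0.05, and dotted lines mark a log2 fold-change of 1 either way. Only Slc30a2 is both filled and past a dotted line. The Slc39a2 estimate of -1.28, also past a line, is not filled and rests on 1 male array above background.

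Among the ZnT family, which carries zinc out of the cytosol, Slc30a2 was the gene that differed. Slc30a2 loads zinc into vesicles of secretory cells such as those of the mammary gland. Its log2 signal was -0.59, -1.17, -1.18 and -0.95 in females 1 to 4 and 0.33, 0.22, 0.31 and 0.20 in males 1 to 4. Every male lay above every female, and the males spread less (SD 0.066, n = 4) than the females (SD 0.28, n = 4). The log2 fold-change was 1.24 (SE 0.13, limma adjusted p = 0.0018), a 2.37-fold higher signal in males, with an exact two-sided permutation p of 0.0286, the smallest that 4 against 4 allows. Within the 2 slide rows, each with 2 males and 2 females, the difference was 1.33 and 1.15. The size of the difference exceeded that of 98.2% of tested probes. In whole cortical slices, fewer cells of a type and less RNA per cell cannot be told apart. The proximal tubule marker sum overlapped between the sexes, although 6 of its 10 single markers did not, 4 higher in males and 2 higher in females. The part of any marker list in the Slc30a2 difference was not tested.

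The other ZnT genes did not pass. Slc30a4, which fills endosomal vesicles with zinc and is mutated in the lethal milk mouse, was -0.57, -0.67, -0.60 and -0.74 in females and -0.53, -0.23, -0.26 and -0.51 in males. Its groups did not overlap, but the nearest female and male were close, and the log2 fold-change was 0.26 (SE 0.091, limma adjusted p = 0.117). Slc30a1, the zinc exporter of the plasma membrane, had a log2 fold-change of 0.075 (95% interval -0.31 to 0.46, limma adjusted p = 0.824). Slc30a5, which supplies zinc to enzymes of the secretory pathway, differed by -0.0088 (95% interval -0.17 to 0.15), and Slc30a9 by -0.12 (95% interval -0.43 to 0.20). Slc30a3, the transporter of synaptic vesicles, had the largest spread of all 32 genes, from -2.19 to -3.96 in females and from -3.29 to -4.43 in males, and its difference of -0.79 (SE 0.39, limma adjusted p = 0.249) did not exceed that spread. Slc30a8, the zinc transporter of insulin granules, and Slc30a10, a manganese exporter, were well above background on 0 arrays, and Slc30a6 and Slc30a7 had no probe with a matching accession.

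None of the 13 tested ZIP genes, the zinc importers, passed an adjusted p of 0.05 by limma with the default prior. At an unadjusted p below 0.05 there were 5, of which 4 were higher in males (Slc39a1, Slc39a3, Slc39a8 and Slc39a12) and 1 higher in females (Slc39a2). Of all 23425 probes 25.6% had such a p, 2279 of them higher in males and 3708 higher in females. The 5 are not read as a result about the ZIP family. Slc39a1, a plasma membrane importer found in most cells, was 1.36, 1.19, 1.55 and 1.55 in females and 1.80, 1.71, 1.73 and 1.61 in males. All males lay above all females, by little at the nearest pair, and the log2 fold-change was 0.30 (SE 0.097, limma adjusted p = 0.0981). At its second, dimmer probe the groups overlapped, with 0.18 (SE 0.13, limma adjusted p = 0.406). Slc39a3, a close relative of Slc39a1, was 2.28, 2.15, 2.25 and 2.14 in females and 2.44, 2.45, 2.36 and 2.33 in males. This was the smallest within-sex spread of the 32 genes (pooled SD 0.065), and the groups did not overlap, but the log2 fold-change of 0.19 (SE 0.067) had a limma adjusted p of 0.121. Slc39a8, which carries zinc, manganese and cadmium, differed by 0.32 (SE 0.13, limma adjusted p = 0.163), and Slc39a12 by 0.38 (SE 0.16, limma adjusted p = 0.188), each with overlapping groups.

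Slc39a2 was the dimmest of the 32 genes, and its difference is uncertain. Its log2 signal was -8.11, -7.11, -7.64 and -7.12 in females and -9.03, -9.49, -8.15 and -8.44 in males. The groups did not overlap, but the highest male was within 0.1 of the lowest female, and the probe was well above background on only 3 female arrays and 1 male array, just enough for the filter. The fitted log2 fold-change, which takes the readings near background at their value, was -1.28 (SE 0.33, limma adjusted p = 0.0524; exact permutation p = 0.0286). With normexp background correction it was -0.35 (limma adjusted p = 0.0319), and without female 1 it was -1.49 and passed both thresholds, as it also did with a trended robust prior in limma. Without male 3 no male array was above background, so no difference is given for that case. The other 31 genes were well above background on all 8 arrays.

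Slc39a5, a basolateral zinc carrier, was 3.24, 3.05, 3.08 and 2.49 in females and 2.98, 2.16, 2.20 and 2.61 in males, with overlapping groups and a log2 fold-change of -0.48 (SE 0.22, limma adjusted p = 0.224). Its difference was 0.014 in slide row 1 and -0.97 in slide row 2. Slc39a4, the intestinal zinc importer that is mutated in acrodermatitis enteropathica, differed by -0.17 (95% interval -0.67 to 0.33). A probe named only by the study, for a Slc39a4-like zinc transporter, entered none of the counts of metal genes. That probe was higher in males by 1.06 (SE 0.13, limma adjusted p = 0.0029). Slc39a14, which also carries iron and manganese, differed by 0.18 (95% interval -0.029 to 0.39), and Slc39a10 and Slc39a11 by 0.025 and 0.042. Slc39a6, Slc39a7, which releases zinc from the endoplasmic reticulum, and Slc39a9 had log2 fold-changes of -0.16, -0.18 and -0.15, and the intervals of all 3 included 0. Slc39a13 had no probe with a matching accession.

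Of the 3 chosen metallothioneins with a probe, Mt3 was higher in females, while Mt1 and Mt2A had differences near 0 with wide intervals. Mt3, the form best known from the brain, was -3.74, -3.95, -4.32 and -3.74 in females 1 to 4 and -4.48, -4.69, -4.84 and -4.66 in males 1 to 4. Every female lay above every male, although female 3 was close to male 1. The log2 fold-change was -0.73 (SE 0.14, limma adjusted p = 0.0205; exact permutation p = 0.0286), a 1.65-fold higher signal in females. Within slide rows 1 and 2 it was -0.54 and -0.91. The adjusted p rose above 0.05 when female 1, female 2, male 2, male 3 or male 4 was left out, up to 0.0569. The segment 3, thick ascending limb and glomerulus marker sums were also higher in females without overlap, but the sexes overlapped once the brightest gene of each list was left out. The part of these lists in the Mt3 difference was not tested.

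Mt1 and Mt2A, the main inducible metallothioneins, varied more between rats of the same sex than between the sexes. Mt1 was 5.67, 5.96, 5.46 and 5.07 in females and 5.66, 5.71, 5.13 and 5.74 in males. Female 4 and male 3 were the lowest rats of their sex, and the groups overlapped over most of their range. The log2 fold-change of Mt1 was 0.017 (95% interval -0.46 to 0.49, limma adjusted p = 0.971), so a difference anywhere within that interval is not excluded. Mt2A was 5.31, 5.57, 5.09 and 4.86 in females and 5.31, 5.39, 5.03 and 5.42 in males, again lowest in female 4 and male 3. Its log2 fold-change was 0.078 (95% interval -0.28 to 0.44, limma adjusted p = 0.800), and its second, dimmer probe gave 0.071. Mt1m, listed as a pseudogene, had no probe with a matching accession. Mt4, listed here with the copper partner genes, had a probe that was well above background on 0 arrays.

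**Figure D3:**
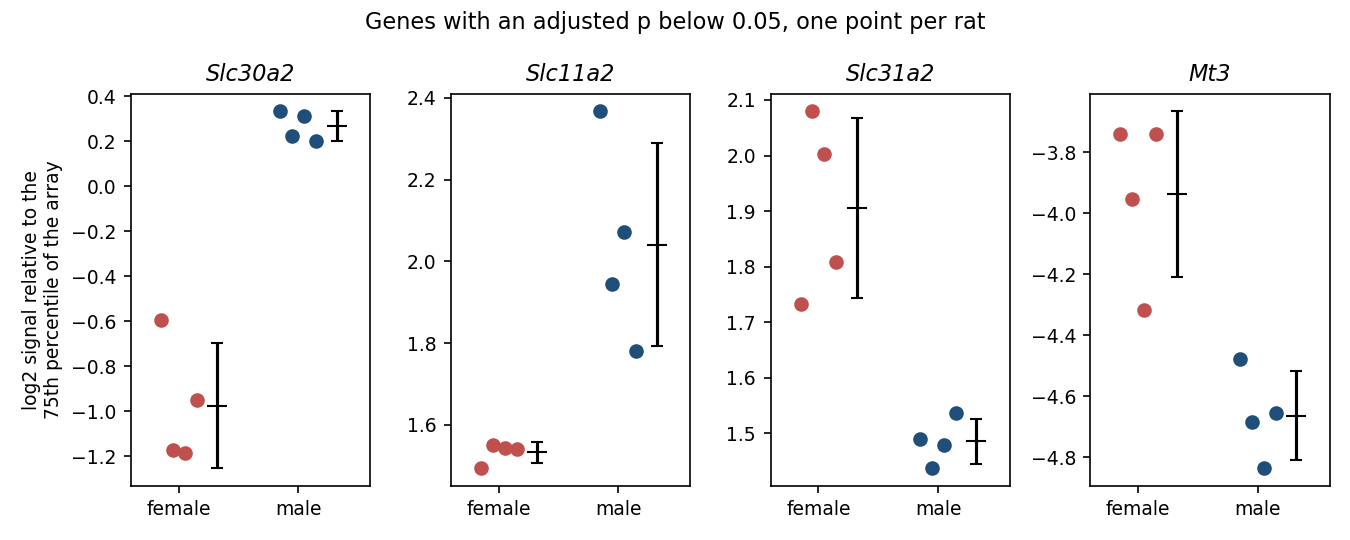
Log2 signal relative to the 75th percentile of the array (y-axis) in each of 4 female and 4 male rats for the 4 genes with an adjusted p below 0.05. Points are rats, and the cross bar and whiskers beside them are the mean and 1 SD. The y-axes differ between panels and do not start at 0. The sexes do not overlap in any panel, and the females of Slc11a2 lie between 1.49 and 1.55.

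The rats kept nearly the same order for Mt1, Mt2A and Slc30a1. Across the 8 rats, Mt1 and Mt2A had Pearson's r = 0.971 (exact permutation p = 2.48e-05, Benjamini-Hochberg 0.000124) and Spearman's rho = 1 (exact permutation p = 4.96e-05, the smallest two-sided value that rho allows with 8 rats, Benjamini-Hochberg 0.000248). Without female 4 and male 3, the rats furthest from the median of Mt1, r was 0.982. Slc30a1 was -2.05, -1.91, -2.30 and -2.75 in females and -2.23, -2.14, -2.26 and -2.07 in males, and female 4 and male 3 were again the lowest of their sex. Slc30a1 followed Mt1 with r = 0.851 (exact permutation p = 0.00119, Benjamini-Hochberg 0.00198) and rho = 0.905 (exact permutation p = 0.00456, Benjamini-Hochberg 0.00761), and r was 0.911 without the same pair of rats. Slc30a1 followed Mt2A with r = 0.902 (exact permutation p = 0.00062, Benjamini-Hochberg 0.00155) and rho = 0.905 (exact permutation p = 0.00456, Benjamini-Hochberg 0.00761), and r was 0.881 without them.

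These relations were also positive within each sex and with the slide rows centred, Slc30a1 following less closely in males. With each sex centred on its own mean, r was 0.983 for Mt1 with Mt2A, 0.858 for Mt1 with Slc30a1 and 0.900 for Mt2A with Slc30a1. In the same order, r was 0.991, 0.984 and 0.962 in the 4 females and 0.987, 0.726 and 0.822 in the 4 males. With each slide row centred on its mean, r was 0.978, 0.884 and 0.902. The difference between the sexes in these 3 genes had opposite signs in the 2 rows, at 0.43 and -0.40 for Mt1, 0.39 and -0.23 for Mt2A, and 0.37 and -0.22 for Slc30a1. In all, 5 such relations were computed. Whether the probes of Mt1 and Mt2A also bind the transcript of the other gene was not tested. Mtf1, the zinc-sensing factor, differed by -0.00043 between the sexes (95% interval -0.22 to 0.22).

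**Figure D4:**
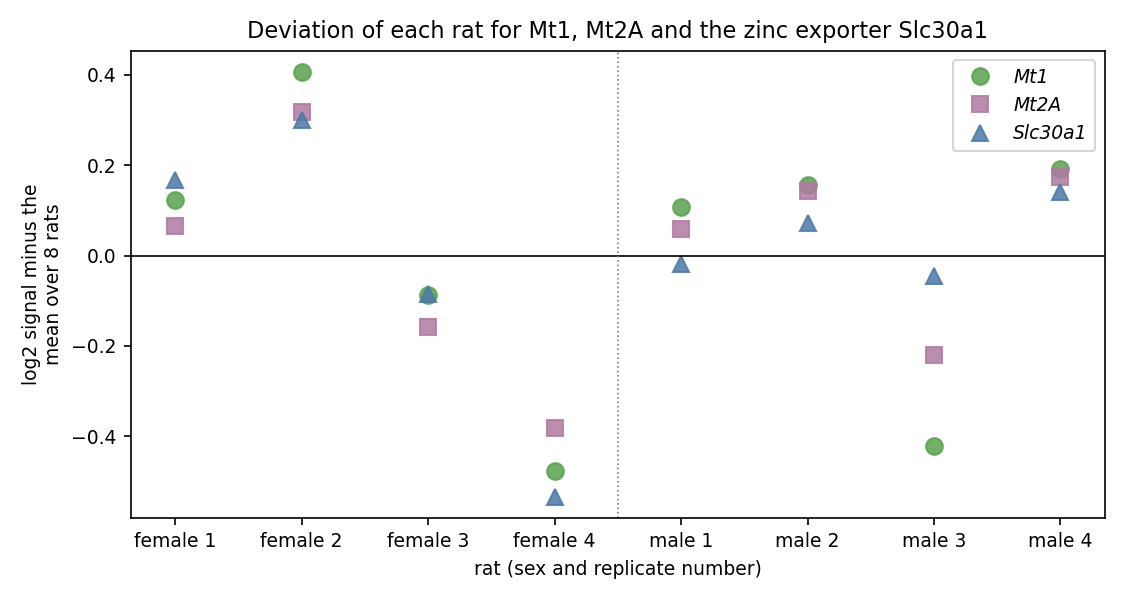
Log2 signal of Mt1 (circles), Mt2A (squares) and Slc30a1 (triangles) in each rat, as the difference from the mean of that gene over 8 rats (y-axis), by sex and replicate number (x-axis). The 3 symbols lie close together in most rats, are highest in female 2, and are lowest of their sex in female 4 and male 3. In male 3 Slc30a1 lies nearer to 0 than the metallothioneins.

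Of the 4 copper genes, Slc31a2 was higher in females. Slc31a2 is a relative of the copper importer Slc31a1 and acts on copper in endosomes. It was 1.73, 2.08, 2.002 and 1.81 in females and 1.49, 1.44, 1.48 and 1.54 in males. Every female lay above every male, and the males lay close together. The log2 fold-change was -0.42 (SE 0.089, limma adjusted p = 0.0275; exact permutation p = 0.0286), a 1.34-fold higher signal in females, and it was -0.39 and -0.45 within slide rows 1 and 2. The adjusted p rose above 0.05, up to 0.0751, without female 2, without female 3 or without any 1 of the males. With the replicate number as a block it was 0.0796. A second probe for the gene gave the same size, -0.42 (SE 0.10, limma adjusted p = 0.0473). The same 3 marker sums as for Mt3 were higher in females, again with overlap once the brightest gene of each list was left out, and their part was not tested.

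Slc31a1, which takes up copper at the plasma membrane, differed by -0.10 (95% interval -0.40 to 0.20). The copper-exporting ATPases did not pass either. Atp7a, which is mutated in Menkes disease, differed by -0.18 (95% interval -0.56 to 0.20). Atp7b, which is mutated in Wilson disease, was -4.54, -4.78, -4.72 and -4.94 in females and -4.05, -4.65, -3.66 and -4.42 in males. Male 2 fell within the female range, and the log2 fold-change was 0.55 (SE 0.20, limma adjusted p = 0.137). Its second probe gave 0.17 (SE 0.13, limma adjusted p = 0.431).

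Of the 6 iron genes, Slc11a2 passed at 1 of its probes. Slc11a2 (DMT1) carries ferrous iron and other divalent metals across apical and endosomal membranes. Its brighter probe read 1.49, 1.55, 1.54 and 1.54 in females and 2.37, 1.94, 2.07 and 1.78 in males. The females were nearly equal (SD 0.025, n = 4), the males spread widely above them (SD 0.25, n = 4), and the groups did not overlap. The log2 fold-change was 0.51 (SE 0.12, limma adjusted p = 0.0387; exact permutation p = 0.0286), and 0.53 and 0.49 within slide rows 1 and 2. The adjusted p rose above 0.05, up to 0.0880, without any 1 of the females, male 2 or male 3. It was 0.0549 with the slide row as a block and 0.0830 with the replicate number as a block. The dimmer probe, also well above background on all 8 arrays, gave -0.026 (95% interval -0.22 to 0.17, limma adjusted p = 0.883), so the intervals of the 2 probes did not overlap. Where on the Slc11a2 transcripts each probe lies was not analysed here, and the gene as a whole is therefore not called higher in either sex.

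**Figure D5:**
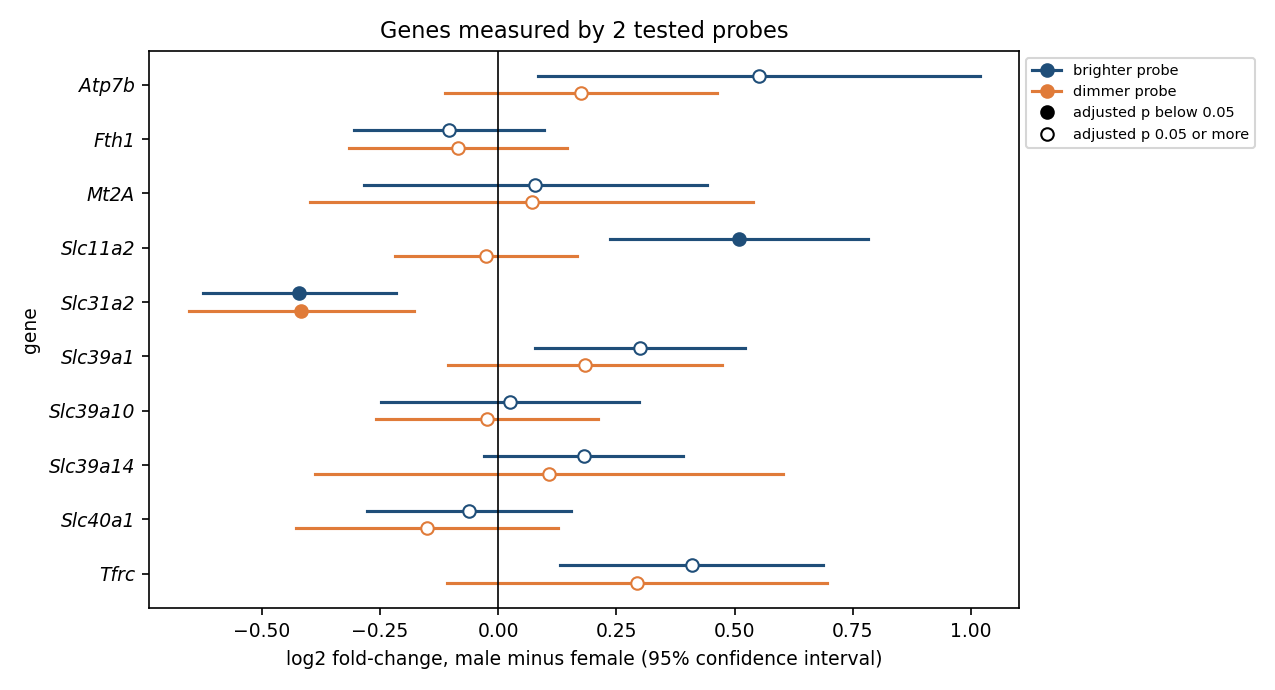
Log2 fold-change (male minus female, x-axis) at the brighter and the dimmer probe of the 10 genes with 2 tested probes (y-axis). Points are limma estimates, bars are 95% confidence intervals, and filled points have an adjusted p below 0.05. Both probes of Slc31a2 are filled at -0.42, whereas the intervals of the Slc11a2 probes do not overlap.

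Tfrc, the transferrin receptor, was 0.93, 0.67, 0.70 and 1.21 in females and 1.31, 1.19, 1.35 and 1.28 in males. Female 4 lay among the males, and the log2 fold-change was 0.41 (SE 0.12, limma adjusted p = 0.0789; exact permutation p = 0.0571). Without female 4 it was 0.52 with a limma adjusted p of 0.0189, and with a trended robust prior the limma adjusted p was 0.0455. The second Tfrc probe gave 0.29 (SE 0.18, limma adjusted p = 0.338). Ftl1, the light chain of the iron store ferritin, was 6.10, 6.29, 6.15 and 6.08 in females and 5.94, 6.05, 5.84 and 5.98 in males. The groups did not overlap, and the log2 fold-change was -0.20 (SE 0.077, limma adjusted p = 0.145). It was -0.072 with quantile normalization (limma adjusted p = 0.444) and -0.072 with the deposited log2 values (limma adjusted p = 0.445). Fth1, the ferritin heavy chain, differed by -0.10 (95% interval -0.30 to 0.098), the iron exporter Slc40a1 (ferroportin) by -0.062 (95% interval -0.28 to 0.15), and Slc11a1, the metal transporter of macrophage phagosomes, by 0.20 (95% interval -0.41 to 0.81). The macrophage marker sum overlapped between the sexes.

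Tfrc, whose transcript is known to be stabilised by iron regulatory proteins, was compared with Slc11a2 (brighter probe). Over the 8 rats they had r = 0.705 (exact permutation p = 0.0502, Benjamini-Hochberg 0.0627) and rho = 0.643 (exact permutation p = 0.0962, Benjamini-Hochberg 0.120). Whether this probe reads Slc11a2 transcripts under the same control was not analysed. Without females 2 and 3, r was 0.711, but with each sex centred on its own mean it was 0.081, so the relation did not hold within the sexes. Tfrc and Fth1 had r = -0.559 (exact permutation p = 0.167, Benjamini-Hochberg 0.167) and rho = -0.595 (exact permutation p = 0.132, Benjamini-Hochberg 0.132), and r was -0.542 without the same pair of females and -0.358 with each sex centred.

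Of 69 tested partner genes of metal handling, listed by function, 10 passed an adjusted p of 0.05 by limma, 3 higher in males and 7 higher in females (6 in all without female 2 or without male 3), and the share of all probes was 8.06% (3.39% and 4.67%). The median log2 fold-change of the 69 was -0.016. Of 28 iron genes, 2 passed higher in males and 2 higher in females, against the same 3.39% and 4.67% of all probes. Ireb2, an iron regulatory protein, was higher in males by 0.48 (SE 0.068, limma adjusted p = 0.0055), and Slc25a37 (mitoferrin), which brings iron into mitochondria, by 0.51 (SE 0.10, limma adjusted p = 0.0219). Hjv, a co-receptor in the hepcidin pathway, was lower in males, with a log2 fold-change of -1.28 (SE 0.23, limma adjusted p = 0.0154), and so was Scara5, a ferritin receptor, with -0.68 (SE 0.13, limma adjusted p = 0.0192). Hamp, which encodes hepcidin, differed by -0.028 (95% interval -0.32 to 0.27).

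Of 13 copper chaperones and copper enzymes, 1 passed, against 8.06% of all probes. It was Sod3, the extracellular superoxide dismutase, which was lower in males with a log2 fold-change of -0.99 (SE 0.083, limma adjusted p = 0.00068). Of 19 zinc enzymes of the renal tubule, the peptidase Enpep was higher in males (0.50, SE 0.075, limma adjusted p = 0.0072), and 3 were lower, against 3.39% and 4.67% of all probes. The lower ones were the brush border protease Mep1b (-1.50, SE 0.25, limma adjusted p = 0.0107), the carbonic anhydrase Car15 (-0.90, SE 0.20, limma adjusted p = 0.0304) and the dipeptidase Dpep1 (-0.67, SE 0.15, limma adjusted p = 0.0362). Of 9 genes listed for zinc sensing or response, 1 passed, the potassium channel Kcnk1 (-0.75, SE 0.15, limma adjusted p = 0.0240), and the median of the 9 was -0.29. Among these partners only Mep1b and Hjv were also past a log2 fold-change of 1. When 1 rat was left out, Sod3, Enpep, Mep1b, Ireb2 and Hjv passed an adjusted p of 0.05 every time. Slc25a37, Scara5, Kcnk1, Car15 and Dpep1 did not. Car15 passed only without female 3 or without male 2, and Dpep1 only without female 2 or without female 3. Of the 8 segment 3 markers 4 passed, all 4 higher in females, against 4.67% of all probes. Their sum was higher in females without overlap, but the sexes overlapped without Slc7a13. A relation of this sum to the partner genes was not tested.

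The spread between rats of the same sex varied widely among these genes. The median pooled SD within sex was 0.19 for the 32 genes and 0.16 for all tested probes, a difference that was not tested. It was highest for Slc30a3 (0.65) and Slc39a2 (0.54) and lowest for Slc39a3 (0.065) and Slc30a5 (0.075). The median standard error of the log2 fold-change was 0.13 for the 32 genes and 0.11 for all probes.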

How the data were processed

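Total RNA of 8 cortical kidney slices, 1 per rat, was labelled with Cy3 and hybridised to Agilent 8×60K rat arrays. The authors deposited for every spot the signal intensity given by Feature Extraction 10.7.3.1, background-subtracted and not normalized between arrays per the file headers. They also deposited log2 values with the same rank order on each array (Spearman 1) and a median of 9.47, which were used only as an alternative; the submitters' processing notes name limma 3.8.2. Samples were grouped by the sex and replicate number in their titles, and each rat was 1 replicate.

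Spots flagged as outliers and control spots were left out, spots of a probe were averaged, and log2 signals were taken relative to the 75th percentile of the array. The percentile scaling sets levels relative to each array, so a change in most genes at once would not be seen. A probe was tested if 4 or more of the 8 arrays read it well above background (23425 of 30367 probes), with lmFit and eBayes of limma 3.58.1 in R 4.3.3, and p-values were adjusted by Benjamini-Hochberg over all of them. Genes were named by RefSeq accession, which named 17514 probes. Single genes were also tested by the exact permutation over 70 assignments. The limma fit was tested on simulated data, with simulated differences larger than those of the 32 genes, and the other steps were not tested in this way.

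All genes of the rule are named, with the value on every array for those with an adjusted p below 0.05 and for further genes chosen after their values were seen. Genes of 4 partner lists (zinc sensing and zinc-responsive genes, iron partners, copper chaperones and enzymes, zinc enzymes of the renal tubule) are named where they passed, Mtf1 and Hamp being added after their values were seen, and 9 lists of cell type markers were summed. The members and lists were chosen with earlier results of these data known, as were the 5 relations between genes. The alternatives were quantile normalization, the deposited log2 values, normexp (offset 50) on the median spot signal, no or a stricter filter on dim probes, outlier spots kept, a trended robust prior, the replicate number or the slide row as a block, the second probe of a gene, and leaving out each rat. Protein sequences were not used here.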

Additional observations from a re-analysis of the deposited data

Results flagged for a closer look

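In 2 of the 64 groups of 4 rats checked (32 genes in each sex), 1 rat stood apart from the other 3 by Dixon's ratio of gap to range, beyond the 95% critical value for 4 samples. Chance gives about 1 in 20 such groups, or 3.2 of 64. For Mt1, male 3 read 5.13 on the log2 scale, while the other males lay between 5.66 and 5.74 (ratio 0.866). For Slc11a2, female 1 read 1.49, while the other females lay between 1.54 and 1.55 (ratio 0.831).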

How the results depend on the processing

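Slc30a2 passed an adjusted p of 0.05 by limma, with a log2 fold-change of 1.17 to 1.37, under the 17 alternatives that could be run for it, which has no second probe. The number of metal genes called sex-dependent was 2 with a trended robust prior, which added Slc39a2, and ranged from 1 to 2 when 1 rat was left out (2 without female 1 or without male 3, the latter with no male array above background for Slc39a2). The number at an adjusted p below 0.05, 4 in the report, was 2 with no filter on dim probes, 5 with normexp and 6 with the trended robust prior, and ranged from 1 to 4 when 1 rat was left out, with 1 left, Slc30a2, without female 2 or without male 2. The number of partner genes at that threshold, 10 in the report, ranged from 6 to 12 when 1 rat was left out, the lowest without female 2 or male 3, and was 14 with normexp and 14 with the trended robust prior. With 3 rats in a sex fewer samples entered the fit; other causes were not tested. Mt3 passed in 12 of 17 alternatives, and of 18 Slc31a2 passed in 10 and Slc11a2 in 8, and Slc11a2 reversed to -0.026 at its second probe. When 1 rat was left out, the log2 fold-change ranged from -0.14 to 0.16 for Mt1, from -0.036 to 0.20 for Mt2A and from -0.090 to 0.19 for Slc30a1, each below 0 without female 4. Over all probes, 1030 passed an adjusted p of 0.05 with the replicate block and 1889 without it.

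Deviations of rats with the same replicate number correlated at 0.13, 0.043, -0.0079 and 0.12. Females 1 and 4 and males 1, 2 and 4 correlated best with their own number, and the remaining rats did not. These values do not settle whether the numbers pair the rats. With the replicate block, 2 metal genes passed, Slc30a2 and Mt3, and 8 partner genes.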

Other observations

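One further probe, named for a Slc39a4-like zinc transporter only in a supplementary table of the study, had no match in the RefSeq table and entered none of the counts of metal genes, although it is one of the probes tested. Its log2 signal ranged from -1.82 to -1.38 in females (mean -1.64 ± 0.20, SD, n = 4) and from -0.76 to -0.34 in males (mean -0.58 ± 0.19, SD, n = 4). The log2 fold-change was 1.06 (SE 0.13, limma adjusted p = 0.0029), past both thresholds of a sex-dependent call, and the values of the sexes did not overlap.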
